A study of Homo sapiens with 22 samples.

Results

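MHC class I antigen presentation was followed through 9 genes that cover its successive steps. HLA-B, HLA-C, HLA-E and HLA-F encode heavy chains, B2M encodes the light chain that every class I molecule shares, TAP1 and TAP2 encode the peptide transporter, and PSMB8 and PSMB9 encode inducible catalytic subunits of the proteasome. The genes were chosen by name for these roles, with earlier results of these data known. They are 9 of the 49149 named genes in the deposited table, and all 9 were among the 21566 genes tested. Every one lay above the detection floor of 3 on the log2 scale in all 22 libraries, the lowest single value being 4.13. The floor was set from near-silent entries, which spread around 0 and rarely passed 2.81. Levels compare libraries and not genes with each other, because it is not known whether transcript length was divided out.

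Class I molecules display peptides of the cell's own proteins at its surface, where cytotoxic T cells and natural killer cells read them. The proteasome cuts proteins into peptides, TAP carries these into the endoplasmic reticulum, and a loading complex fits them into the groove of a heavy chain paired with beta-2-microglobulin. Interferon gamma induces most genes of the pathway through IRF1 and the coactivator NLRC5, and epithelial cells keep a basal level without it. Loss of class I genes is a known route of immune escape in prostate and other carcinomas.

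RNA was sequenced from cells labelled RWPE1, an immortalized human prostate epithelial line of basal character. By genotype label, 6 libraries came from cells with an empty vector, an altered pTRIPZ (Vector), 6 from cells overexpressing wild-type NKX3.1, 6 from cells with its form R52C and 4 from cells with its form T164A. NKX3.1 is a homeobox regulator best known from luminal cells of the prostate. All 22 titles name paraquat, a redox-cycling herbicide, although 3 of the 4 T164A libraries carry no treatment tag. There was no untreated library, so all groups share paraquat and its effect could not be measured, and the labels give no dose or time. By label all groups derive from 1 cell line. Whether replicate libraries stem from separate cultures is not labelled, so p-values speak only to the spread among these 22 libraries, and that spread may be technical.

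Marker genes already set the groups apart. All 5 basal epithelial markers were above the floor in every Vector, NKX3.1 and T164A library. In R52C only KRT14 and ITGB4 were, and TP63, the basal master regulator, was under the floor in all 6 libraries. The summed level of the 5 basal markers was 7.11 to 8.26 in R52C, where Vector had 17.25 to 17.57, NKX3.1 had 16.94 to 17.12 and T164A had 16.50 to 16.62. That of the 5 luminal markers (KLK3, KLK2, HOXB13, FOLH1, TMPRSS2) was 17.43 to 17.48 in R52C and 8.16 to 8.29 in T164A, where Vector had 13.06 to 14.19 and NKX3.1 had 15.59 to 15.86. IRS4, an insulin receptor substrate, averaged 13.64 ± 0.01 (SD, n = 4) in T164A and was under the floor in every Vector library. The R52C libraries therefore went against their label as a basal line, and the identity of the cells cannot be told apart from the NKX3.1 form in any comparison with R52C or T164A. The T164A libraries also differ from the others in the listed build, mm9 alone. Any effect of that on their levels cannot be told apart from the NKX3.1 form either.

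RNA resembling that of the R52C libraries was also present in the Vector and NKX3.1 libraries. Over 87 genes high in R52C and under the floor on average in T164A, the R52C-like share was 5.37% to 10.3% in Vector and 24.8% to 30.8% in NKX3.1. The reference was the mean of R52C replicates 4 to 6, and the class I genes took no part in the estimate. In bulk RNA, fewer cells of a type and less RNA per cell cannot be told apart. Immune cells are another rich source of class I transcripts. PTPRC, the pan-leukocyte marker, was under the floor in all libraries but 1 of Vector, and CD3E, CD79A and LYZ were under it in all 22 libraries. The summed level of the 8 immune markers was 7.09 to 7.22 in R52C and 8.49 to 8.69 in T164A, where Vector had 9.16 to 9.41 and NKX3.1 had 9.10 to 9.33, carried mostly by CD68, which is not confined to immune cells. The 4 fibroblast and endothelial markers in the table summed to 8.99 to 9.27 in R52C and 9.22 to 9.30 in T164A, where Vector had 10.37 to 10.93 and NKX3.1 had 10.56 to 10.74. That sum followed COL1A1, which averaged 10.67 in Vector and 8.05 in R52C. VWF went the other way, averaging 4.57 in Vector and 8.03 in R52C and lying under the floor in all T164A libraries. PDGFRB averaged 2.03 in Vector, 3.85 in T164A and 4.79 in R52C, and COL1A2 was under the floor throughout. The part of these markers in the class I results was not tested.

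Sequences spelled like elements of the interferon response lie just before the starts of 6 of these genes. Their part in the levels of these genes was not tested. These stretches are printed because most of the 9 genes moved together across the groups, and they are RefSeq sequences of build GRCh38.p14, 5′ to 3′ on the gene's own strand, not reads of these cells. Capitals mark matches to the core of the interferon-stimulated response element (GAAA, any 2 bases, GAAA) or to its shorter form GAANNGAAA. In HLA-B they also mark a match to the NF-kB element of the class I enhancer A (GGGGA, any base, TCCCC). Both strands were searched, so some capitals hold the reverse complement, and B2M, TAP1 and TAP2 each hold overlapping matches.
HLA-B, chr6:31357306-31357376, minus strand: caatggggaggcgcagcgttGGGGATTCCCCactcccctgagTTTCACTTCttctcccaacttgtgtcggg
HLA-C, chr6:31272215-31272263, minus strand: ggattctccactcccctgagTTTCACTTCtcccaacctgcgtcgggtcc
HLA-F, chr6:29723258-29723307, plus strand: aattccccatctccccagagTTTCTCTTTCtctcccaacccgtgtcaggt
B2M, chr15:44711353-44711408, plus strand: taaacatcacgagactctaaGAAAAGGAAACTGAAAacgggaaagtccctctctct
TAP1, chr6:32853803-32853858, minus strand: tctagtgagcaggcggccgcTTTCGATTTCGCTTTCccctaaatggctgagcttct
TAP2, chr6:32838768-32838822, minus strand: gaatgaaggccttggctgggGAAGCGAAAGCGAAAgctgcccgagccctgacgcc

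HLA-E had no promoter entry, and in the other heavy chains the matches lay at similar places. GAANNGAAA lay 155 to 147 bases before the start in HLA-B and 151 to 143 in HLA-C. The core element lay 156 to 147 bases before it in HLA-F. In the 250 bases before a start, the core element was found in 4 of the 8 genes with a promoter entry (HLA-F, B2M, TAP1 and TAP2), against 3.02% of 35116 promoters. GAANNGAAA, a form added after the sequences had been seen, was found in 3 (HLA-B, HLA-C and TAP2), against 6.56%. The enhancer A element stood in HLA-B alone among the 8, against 0.0655% of promoters. CCAAT was present in 6 against 32.0%, and TTCNNNGAA, the gamma-activated site, in 2 (TAP1 and PSMB8, each at an alternative start) against 6.57%. TAP1 and PSMB9 are transcribed away from each other from starts 488 bases apart. In PSMB8 and PSMB9 neither interferon element was spelled in the window searched. A match is a spelling and not a measured binding site.

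HLA-B, a classical heavy chain that presents peptides to CD8 T cells, lay lowest in the R52C libraries. Its log2 level ran from 11.78 to 11.98 in Vector (median 11.89), from 11.65 to 11.83 in NKX3.1 (median 11.68) and from 10.48 to 10.62 in R52C (median 10.55), and it was 10.99, 10.90, 10.81 and 10.91 in the 4 T164A libraries. Vector and NKX3.1 overlapped at their edges, while R52C and T164A each stood clear of all other groups. HLA-C, the classical heavy chain read chiefly by killer cell receptors, kept the same order of groups with no overlap. It ran from 12.46 to 12.65 in Vector (median 12.54), from 12.32 to 12.44 in NKX3.1 (median 12.36) and from 11.45 to 11.59 in R52C (median 11.52), and was 11.83, 11.91, 11.84 and 11.85 in T164A.

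HLA-E, the nonclassical heavy chain that shows leader peptides of other class I molecules to the NKG2A receptor, separated R52C from everything else. It ran from 11.15 to 11.22 in Vector (median 11.19), from 10.89 to 11.09 in NKX3.1 (median 11.05) and from 8.74 to 8.80 in R52C (median 8.77), and was 10.73, 10.74, 10.71 and 10.73 in T164A. No library of the other groups was under 10.71, and no R52C library passed 8.80. HLA-F, a nonclassical heavy chain that also occurs as an open conformer without peptide, spanned the widest range of the 4. It ran from 9.35 to 9.63 in Vector (median 9.49), from 9.05 to 9.20 in NKX3.1 (median 9.10) and from 5.11 to 6.01 in R52C (median 5.72), and was 7.69, 7.75, 7.66 and 7.82 in T164A. No groups overlapped, and the low R52C values came with the largest spread, an SD of 0.31.

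B2M, the light chain without which heavy chains do not reach the surface, was the 1 gene of the 9 that was lowest in T164A. It ran from 13.41 to 13.56 in Vector (median 13.43), from 13.09 to 13.31 in NKX3.1 (median 13.16) and from 12.26 to 12.47 in R52C (median 12.40), and was 12.06, 12.03, 12.07 and 12.04 in T164A. No groups overlapped.

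TAP1, one chain of the peptide transporter, differed least. It ran from 9.60 to 9.77 in Vector (median 9.69), from 9.41 to 9.62 in NKX3.1 (median 9.56) and from 9.08 to 9.28 in R52C (median 9.24), and was 9.26, 9.29, 9.25 and 9.26 in T164A. NKX3.1 overlapped Vector, and R52C overlapped T164A. Its partner chain TAP2 separated all 4 groups, running from 10.32 to 10.58 in Vector, from 10.03 to 10.17 in NKX3.1 (median 10.11) and from 8.67 to 8.89 in R52C (median 8.79), with 9.51, 9.53, 9.59 and 9.55 in T164A. The difference of R52C from Vector was thus unequal for the 2 chains of 1 transporter, 0.47 lower for TAP1 and 1.62 lower for TAP2.

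PSMB8, the chymotrypsin-like inducible subunit that takes the place of PSMB5, fell in R52C and in T164A. It ran from 9.03 to 9.37 in Vector (median 9.16), from 8.57 to 8.95 in NKX3.1 (median 8.76) and from 5.22 to 5.72 in R52C (median 5.48), and was 7.36, 7.15, 7.47 and 7.31 in T164A. No groups overlapped. PSMB9, which takes the place of PSMB6, ran from 6.82 to 7.41 in Vector (median 7.08), from 6.48 to 6.83 in NKX3.1 (median 6.72) and from 4.13 to 4.91 in R52C (median 4.66), and was 6.01, 6.37, 6.17 and 6.19 in T164A. Vector and NKX3.1 touched at 1 value, and the other groups stood apart.

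**Figure D1:**
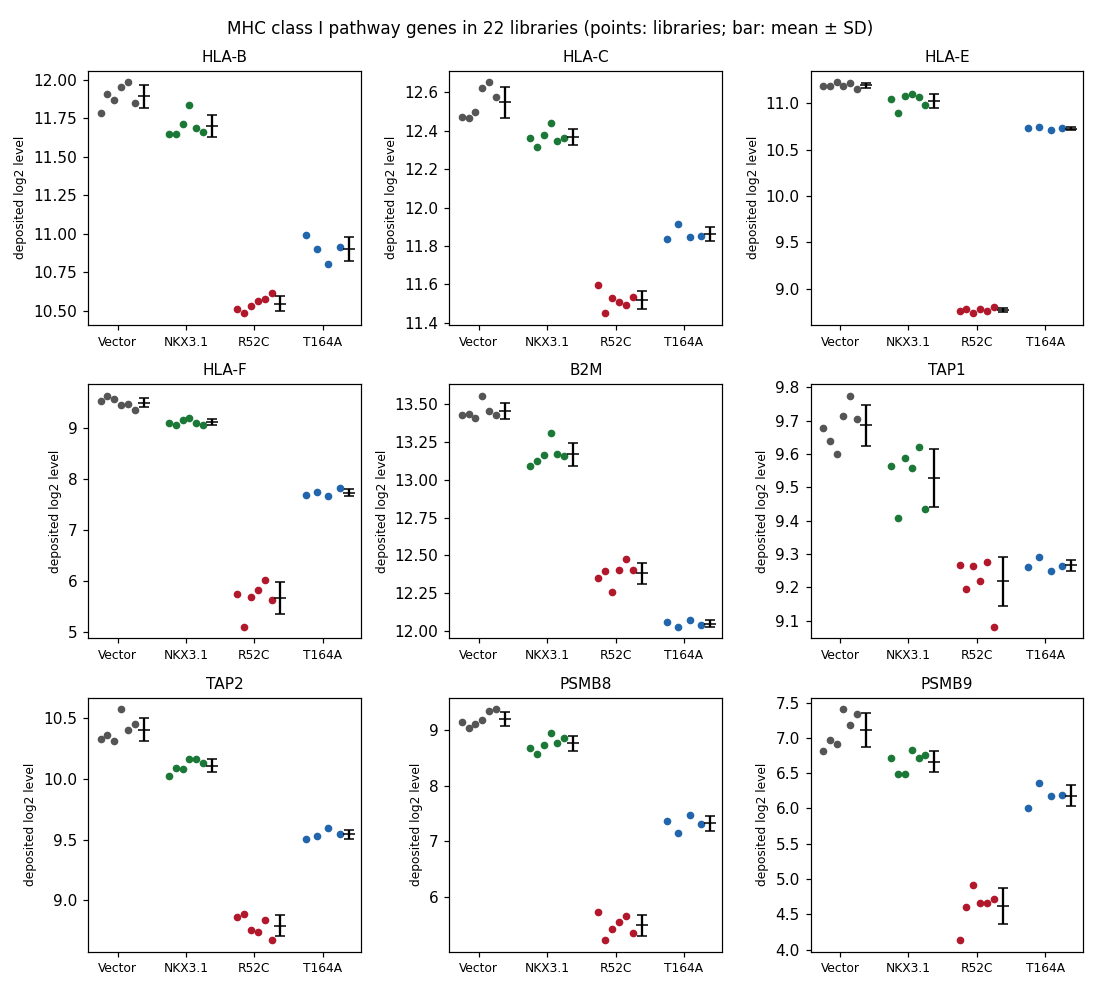
Deposited log2 level of each of the 9 genes in each of 22 libraries (points, by group; bars are mean ± SD, n = 6, 6, 6 and 4), each panel on its own scale. Vector is highest in every panel and R52C lowest in all but B2M, where T164A is lowest, and TAP1, where R52C and T164A overlap and their order depends on the scaling.

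Set side by side in the panels of library values, the group means fell in the order Vector, NKX3.1, T164A, R52C for 8 of the 9 genes, although for TAP1 the last pair was not called and turned under other scalings. B2M had the order Vector, NKX3.1, R52C, T164A. The neighbours that did not separate by their ranges were Vector and NKX3.1 for HLA-B, TAP1 and PSMB9, and T164A and R52C for TAP1.

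In R52C against Vector, all 9 genes fell, and their ranges did not overlap for any of the 9. HLA-F and PSMB8 changed most, to 7.06% and 7.63% of the Vector level, and TAP1 least, to 72.3%. HLA-F was lower by 3.82 ± 0.09 (SE; limma, adjusted p = 1.74e-23), PSMB8 by 3.71 ± 0.08 (adjusted p = 4.32e-24) and TAP1 by 0.47 ± 0.04 (adjusted p = 6.08e-11). PSMB9 and HLA-E, at 17.8% and 18.7% of Vector, came next, then TAP2 at 32.6%, HLA-B at 39.4%, B2M at 47.5% and HLA-C at 49.0%. Of all genes tested in this comparison, 41.8% were called lower (adjusted p under 0.05) and 35.1% were lower without overlap, so a call by itself sets a gene little apart here. The median over the 9 genes was -1.62, under the lower quartile of all genes (-0.94, with a median of -0.0015 and an upper quartile of 0.84). The basal markers were lower and the luminal markers higher in the same contrast, and their part in these changes was not tested.

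In T164A against Vector, the 9 genes again fell without overlap, by less for most of them. PSMB8 was lower by 1.87 ± 0.09 (SE; limma, adjusted p = 3.94e-16), at 27.3% of the Vector level. HLA-F was lower by 1.77 ± 0.10 (adjusted p = 1.06e-14), at 29.4%, and B2M by 1.41 ± 0.04 (adjusted p = 1.47e-21), at 37.8%. TAP1 and HLA-E changed least, to 74.7% and 72.4%. The median over the 9 was -0.92, against -0.05 for all genes with quartiles of -0.89 and 0.74. In this contrast 41.7% of all genes were called lower, and 34.6% were lower without overlap. All 5 luminal markers were called lower in T164A, and of the basal markers TP63 and DSG3 were called lower and ITGB4 higher. KRT5 was lower without overlap but not called (-1.41 ± 0.89, SE), and KRT14 (-0.12) was not called.

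**Figure D2:**
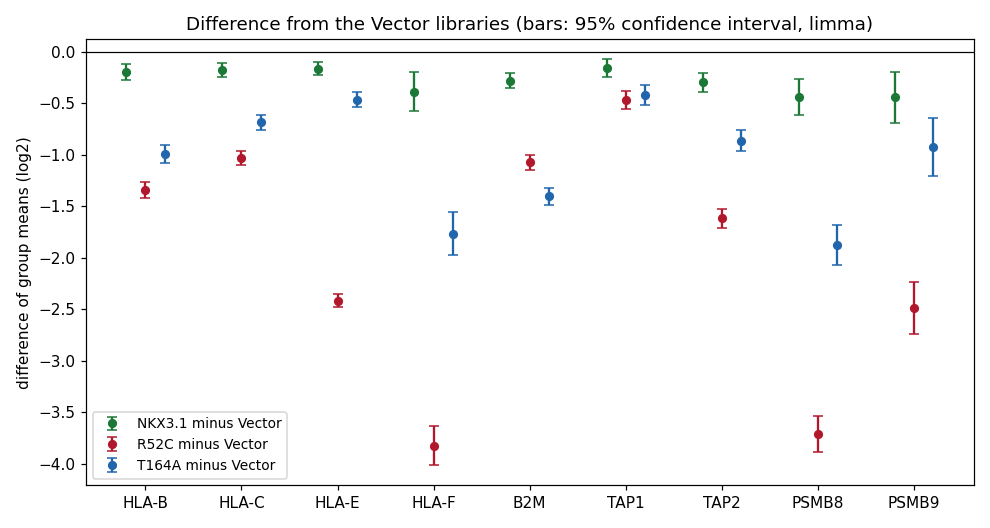
Difference of group means from Vector on the log2 scale for NKX3.1, R52C and T164A, with 95% confidence intervals from limma; all 3 share the same 6 Vector libraries. Every interval lies under 0; R52C reaches -3.82 for HLA-F, T164A -1.87 for PSMB8 and NKX3.1 -0.44 for PSMB9.

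Wild-type NKX3.1 against Vector gave small differences of 1 sign, as the plot of differences from Vector shows. All 9 genes were called lower, by 0.16 for TAP1 to 0.44 for PSMB9, which left them at 89.7% to 73.6% of the Vector level. Among all genes 19.4% were called lower. The ranges did not overlap for 6 of the 9 (HLA-C, HLA-E, HLA-F, B2M, TAP2 and PSMB8), against 11.6% of all genes. B2M was lower by 0.28 ± 0.04 (SE; limma, adjusted p = 3.08e-07) and TAP2 by 0.30 ± 0.04 (adjusted p = 3.66e-06). PSMB8 was lower by 0.44 ± 0.08 (adjusted p = 1.27e-04) and HLA-F by 0.39 ± 0.09 (adjusted p = 0.00122). The median over the 9 was -0.28, and that of all genes -0.01 with quartiles of -0.19 and 0.23. Of all calls 52.6% were higher in NKX3.1, and 35.5% once every library was shifted to the same median. The 9 genes were called lower under both scalings.

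The R52C-like share was also higher in NKX3.1 than in Vector (above). Its relation to class I levels among the libraries of 1 group was not tested. The R52C profile was subtracted on the linear scale from each Vector and NKX3.1 library in its estimated share, and the fit was repeated on the 16170 genes still above the floor. Among the 9 genes only B2M was then called lower, by 0.14 ± 0.04 (limma, adjusted p = 0.0241), while HLA-E was called higher, by 0.12 ± 0.04 (adjusted p = 0.0411). The other 7 lay between -0.18 for PSMB9 and 0.0048 for HLA-B and were not called. The interval for PSMB9 still reached from -0.42 to 0.07, so the loss of its call does not show equal levels. The median over the 9 moved from -0.28 to -0.08, against -0.06 over all genes of that fit, in which 12.6% were called lower and 1.92% higher.

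**Figure D3:**
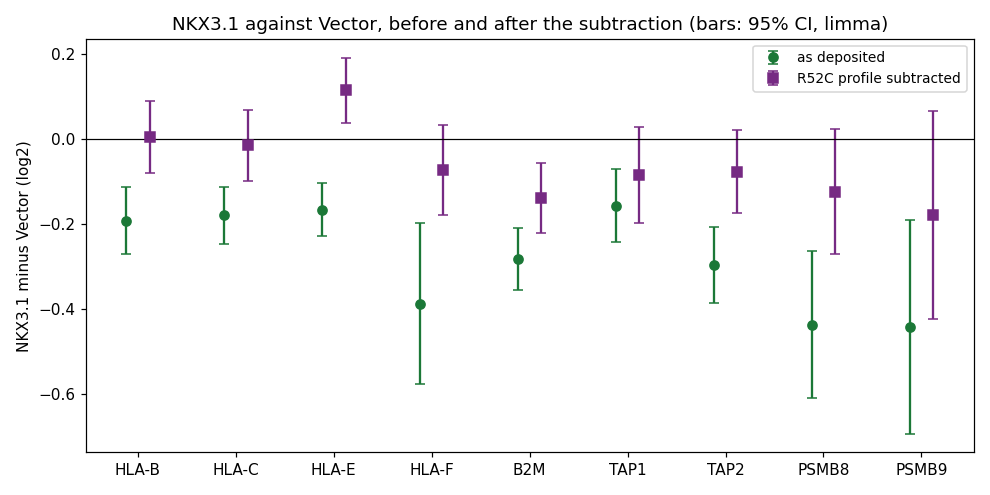
NKX3.1 minus Vector on the log2 scale with 95% confidence intervals (limma), from the values as deposited (circles) and after the R52C profile was subtracted (squares). As deposited every interval lies under 0; after the subtraction B2M alone stays under it, HLA-E lies above it and 7 intervals include 0.

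Replicates 1 to 3 and 4 to 6 of Vector did not overlap for HLA-C, TAP1, TAP2, PSMB8 and PSMB9, which were higher in 4 to 6, by 0.41 for PSMB9. They did not overlap for HLA-F either, which was higher in 1 to 3 by 0.15. In R52C the same split left no overlap for HLA-B and B2M, higher in 4 to 6 by less than 0.1. The share of all genes that separate in this way was not computed, so these counts have no background. With Vector replicates 1 to 3 alone as control, TAP1 (-0.11, limma, adjusted p = 0.0715) and PSMB9 (-0.24, adjusted p = 0.187) were not called against NKX3.1. With replicates 4 to 6 alone all 9 were. The labels do not say what distinguishes these replicates.

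Against R52C, wild-type NKX3.1 held more of all 9 transcripts, with no overlap for any. The differences ran from 0.31 ± 0.04 (SE) for TAP1 to 3.44 ± 0.09 for HLA-F, with a median of 1.32 against -0.03 for all genes, of which 39.4% were called higher and 33.2% were higher without overlap. Once library medians were set equal, TAP1 was not called (0.09, limma, adjusted p = 0.0590). Against T164A the 9 genes were again higher in NKX3.1 without overlap, from 0.26 ± 0.05 for TAP1 to 1.44 ± 0.09 for PSMB8, with a median of 0.57 against 0.07. In that contrast 42.3% of all genes were called higher and 37% were higher without overlap. The 2 contrasts share the NKX3.1 libraries.

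R52C and T164A differed from each other gene by gene. In R52C, 7 of the 9 were called lower, B2M was called higher and TAP1 was not called, where 45.3% of all genes were called lower and 38.4% higher. HLA-F was lower by 2.06 ± 0.10 (SE; limma, adjusted p = 2.70e-16), HLA-E by 1.95 ± 0.03 (adjusted p = 2.43e-26) and PSMB8 by 1.84 ± 0.09 (adjusted p = 4.30e-16). B2M was higher by 0.33 ± 0.04 (adjusted p = 1.78e-08). Of all calls 45.9% were higher in R52C, and 57.8% with library medians set equal. Under that shift HLA-B (-0.05) and HLA-C (-0.04) were not called and TAP1 turned to 0.26 higher in R52C (adjusted p = 1.48e-05). Basal and luminal markers differed between these 2 groups as well, and cell identity and NKX3.1 form cannot be told apart.

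Proteasome makeup was read within each library as the log2 difference between an inducible subunit and the constitutive one it replaces. If transcript length was not divided out, it does not cancel within such a ratio but does between groups. Only differences between groups are therefore compared. PSMB8/PSMB5 averaged -0.75 ± 0.09 (SD, n = 6) in Vector, -1.38 ± 0.13 in NKX3.1 (n = 6), -5.44 ± 0.22 in R52C (n = 6) and -3.69 ± 0.11 in T164A (n = 4). PSMB9/PSMB6 averaged -2.77 ± 0.18, -3.22 ± 0.09, -5.64 ± 0.25 and -4.38 ± 0.18 in the same order. Neither ratio overlapped between any of the groups. PSMB10/PSMB7, the ratio of the trypsin-like subunits, averaged -1.94 ± 0.14, -2.12 ± 0.08, -2.62 ± 0.10 and -3.13 ± 0.06, so that here T164A and not R52C was lowest. Vector and NKX3.1 overlapped in it.

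All 18 comparisons (3 ratios in 6 pairs of groups) had an adjusted p of at most 0.0238 in a two-sided exact permutation test. For 6 libraries against 6 the smallest p the test allows is 0.00216, and for 6 against 4 it is 0.00952. PSMB8/PSMB5 differed between R52C and Vector by -4.69 and PSMB9/PSMB6 by -2.87, each at that smallest p (exact test, adjusted p = 0.00487). Both partners moved in R52C: PSMB5 rose by 0.98 ± 0.04 (SE; limma, adjusted p = 7.86e-18) and PSMB6 by 0.38 ± 0.06 (adjusted p = 8.56e-07). After the R52C profile was subtracted, the differences of NKX3.1 from Vector in these ratios were no longer called. PSMB8/PSMB5 was then 0.047 higher in NKX3.1, and the differences were -0.040 for PSMB9/PSMB6 and -0.067 for PSMB10/PSMB7, and none was called (exact permutation test, adjusted p = 0.675 for each).

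**Figure D4:**
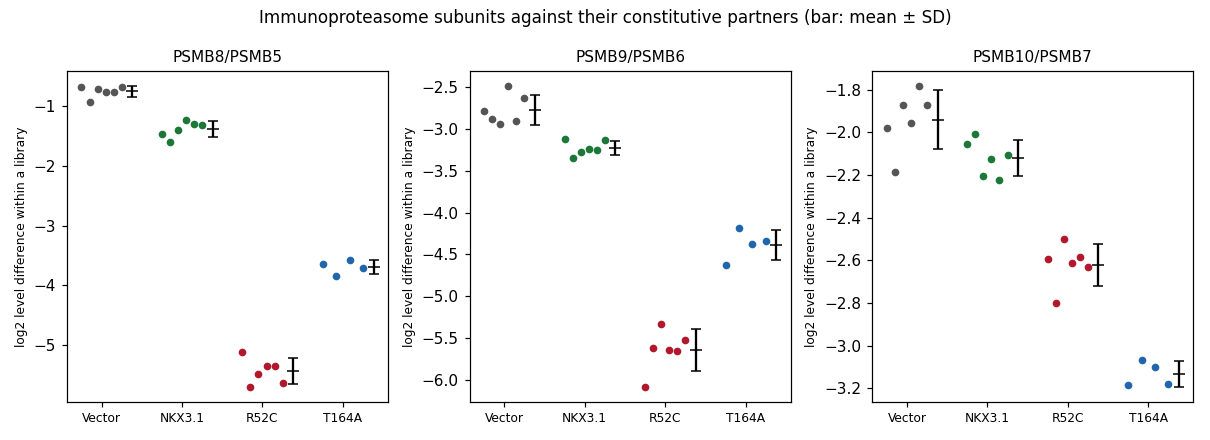
Log2 difference between each inducible proteasome subunit and its constitutive partner within each library (points; bars are mean ± SD, n = 6, 6, 6 and 4). R52C is lowest for PSMB8/PSMB5 (-5.44) and PSMB9/PSMB6 (-5.64), T164A for PSMB10/PSMB7 (-3.13).

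The rest of the pathway did not follow as a block. HLA-G, a heavy chain of the placenta, was under the floor in all R52C libraries but lay near it elsewhere. It ran from 3.01 to 3.83 in Vector, from 2.86 to 3.63 in NKX3.1 and from 2.01 to 5.22 in T164A. Of 5 genes listed for peptide loading, the chaperone CALR (1.63 higher) and the oxidoreductase PDIA3 (0.98 higher) rose in R52C. The tapasin gene TAPBP (-0.18, not called with library medians set equal), the tapasin-related gene TAPBPL (-0.56) and the lectin chaperone CANX (-0.35) fell. In T164A only PDIA3 rose (0.42), TAPBP (-0.58) and TAPBPL (-1.72) fell, and CALR and CANX did not pass the test. CANX and CALR turned lower in T164A, by 0.16 and 0.12, when libraries were shifted to the same median, and CANX was 0.15 higher with quantile normalization.

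ERAP1 and ERAP2, the aminopeptidases that trim peptides inside the endoplasmic reticulum, fell in both. ERAP2 was lower by 5.35 ± 0.06 (SE; limma, adjusted p = 1.80e-30) in R52C, more than any of the 9 genes, and by 2.05 ± 0.07 (adjusted p = 5.95e-20) in T164A. ERAP1 was lower by 2.39 and 1.74.

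Constitutive proteasome genes went the other way for the most part, where 42% of all genes were called higher in R52C and 40.4% in T164A. In R52C against Vector 8 of 11 non-catalytic genes of the 20S core rose and 1, PSMA7 (-0.81), fell, with a median of 0.42. Of the 3 constitutive catalytic subunits 2 rose, and PSMB7 fell by 0.11, which turned to 0.03 higher and was not called with library medians set equal. In T164A against Vector all 3 catalytic subunits rose, by 0.43 to 1.07, and the core was divided, 6 higher (PSMB3 by 1.46) and 5 lower (PSMA1 by 0.70). Of the inducible partners, PSMB10 fell in R52C (-0.79) and T164A (-0.76). The activator PSME2 fell in R52C (-0.76) and PSME1 in T164A (-0.57), while PSME1 rose slightly in R52C (0.14) and PSME2 did not pass the test in T164A (0.05).

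Of the 6 regulators reported, 4 fell and 2 rose in both R52C and T164A against the shared Vector libraries, where 41.8% of all genes were called lower and 42% higher in R52C, and 41.7% and 40.4% in T164A. NLRC5, the class I transactivator, fell by 2.06 ± 0.05 (SE; limma, adjusted p = 6.44e-23) in R52C and by 2.08 ± 0.06 (adjusted p = 1.78e-21) in T164A, and the difference between these groups depended on the scaling. It was 0.02 (95% interval -0.10 to 0.14) and not called as deposited, and 0.32 higher in R52C (limma, adjusted p = 1.92e-05) with library medians set equal. IRF1, an interferon-induced factor known to bind the interferon-stimulated response element, fell by 3.49 in R52C and by 0.78 in T164A. Its binding to the stretches printed above was not measured. IRF2 fell by 0.58 and 0.91, and RFXAP, a subunit of the factor through which NLRC5 is recruited, by 1.18 and 0.48. The other subunits of that factor rose, RFX5 by 1.15 and 1.19 and RFXANK by 0.41 and 0.43.

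**Figure D5:**
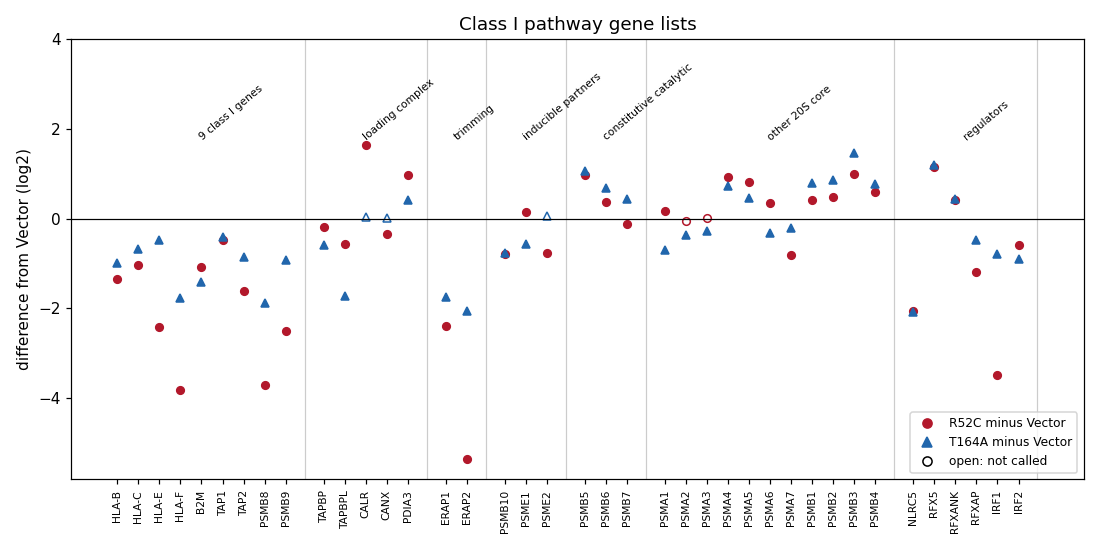
Difference from Vector on the log2 scale for the 9 class I genes and 6 further lists of the pathway, in R52C (circles) and T164A (triangles); open symbols did not pass the test (limma, adjusted p under 0.05). The 9 class I genes, both trimming enzymes and 4 of 6 regulators lie under 0, most 20S core genes above it.

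In NKX3.1 against Vector, where 21.5% of all genes were called higher and 19.4% lower, the same lists held smaller differences. CALR (0.67) and PDIA3 (0.44) rose, and ERAP1 (-0.33), ERAP2 (-0.20) and PSMB10 (-0.26) fell. Of the 11 core genes 3 rose and 2 fell, but the balance depended on the scaling, with 1 higher and 4 lower once library medians were set equal and 4 higher and 1 lower with quantile normalization. Of the constitutive catalytic subunits PSMB5 rose (0.20). Among the regulators RFX5 rose (0.28) and NLRC5 (-0.26), RFXAP (-0.48), IRF1 (-0.28) and IRF2 (-0.15) fell. After the R52C profile was subtracted, CALR (0.28) and PDIA3 (0.28) were still called higher and RFXAP (-0.35) lower. NLRC5 (0.00, limma, adjusted p = 0.997), IRF1 (0.03), IRF2 (-0.05), RFX5 (-0.13), ERAP1 (-0.06), PSMB5 (-0.17) and PSMB10 (-0.16) were not, ERAP2 turned to 0.14 higher, and 5 of the 11 core genes were called lower and none higher, where 12.6% of all genes of that fit were called lower and 1.92% higher.

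By root mean square difference of centred log2 levels over the 22 libraries, the 5 genes nearest to the mean profile of the 9, among genes of at least median level, were LDB1, an adaptor of LIM domain factors (0.0783), SSH3, a slingshot phosphatase (0.0879), SLC6A9, a glycine transporter (0.0880), PPP4R1, a phosphatase regulator (0.0884), and CAST, the calpain inhibitor (0.0943). These were the nearest by choice. Among the 9 the distance ran from 0.179 for TAP2 to 0.771 for HLA-F. Each of the 9 is itself part of that mean profile, so these distances are not comparable with those of the 5. LDB1 averaged 10.45 in R52C, 11.23 in T164A, 12.10 in NKX3.1 and 12.38 in Vector.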

How the data were processed

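The data are 1 table of normalized expression for 22 libraries. The deposited values were assumed to be on the log2 scale, from an earlier look at the table. Per the labels, RNA was poly-A selected, prepared with the TruSeq RNA kit and run on a HiSeq2000. TopHat, Cufflinks, DESeq and CASAVA 1.8.2 are listed for the authors' processing, per the submitters' processing notes, beside builds GRCh37 and mm9 (mm9 alone for T164A). Their roles and the normalization are not given in the sources used here. Depth in reads is unknown: 2 to the power of the deposited values summed to 17256903 to 21506481 per library. No counts were recovered, so count tests were not used.

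Of 56299 entries, 3473 without a name were left out, and the entry with the highest mean was kept for each of 501 repeated symbols, leaving 49149. For the 9 genes, other entries of a symbol reached at most 3.42, and the kept entry held at least 64.2% of the summed signal (PSMB9 in its lowest library). Genes above a floor of 3 in at least 4 libraries were tested; near-silent entries had a 99.9th percentile of 2.81. No pair of libraries was identical. Groups follow the genotype label. The 4 groups were fitted together in limma 3.58.1 (R 4.3.3, trend), with Benjamini-Hochberg adjustment over all 21566 genes, two-sided, called at 0.05. Ratios were compared by exact permutation tests, with adjustment over 18. The fit and the permutation test were tested on simulated data.

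Named genes are the 9, the genes of 9 pathway lists and of marker lists, and the 5 nearest profiles; members and lists were chosen with earlier results of these data known. The subtraction for ratios and lists, the rescaling of lists and the motif GAANNGAAA were added after seeing the data. In the annotated transcripts, 35.2% of the 100-base windows of TAP2 also occur in an overlapping gene model, 5.77% of those of PSMB9 in PSMB8-AS1 and 0.600% of those of HLA-E in HLA-G, so their reads could be shared; strand use in counting is not given in the sources used here. HLA genes differ between alleles, and the effect of the reference allele on mapping was not tested. RefSeq promoters (GRCh38.p14) matched 8 of the 9 by symbol, not HLA-E. The level of the expressed NKX3.1 transgene and some genes of the pathway are not reported here.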

Additional observations from a re-analysis of the deposited data

Results flagged for a closer look

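Of 48 sets of values tested (9 genes and 3 ratios in 4 groups), 4 held a library far from the others of its group by Dixon's criterion, which marks about 1 in 20 sets by chance. NKX3.1 replicate 4 was the highest of its group for HLA-B, at 11.83 with the next library at 11.71, and for B2M, at 13.31 with the next at 13.17. Vector replicate 4 was the highest of its group for B2M, at 13.56 with the next at 13.45. Vector replicate 2 had the lowest PSMB8/PSMB5 ratio of its group, at -0.92 with the next at -0.76. None of the calls on these genes was lost when any 1 library was left out.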

How the results depend on the processing

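Leaving out each library in turn (594 fits of a gene in a comparison) lost no call on the 9 genes and changed no sign. Of 495 values of a gene under other alternatives (scaling, filter, summed entries, 2 groups only, robust moderation, replicates 1 to 3 or 4 to 6 alone, subtraction), 480 kept direction and call, 11 kept direction without a call and 4 turned. Subtracting the R52C profile left 2 of the 9 genes called in NKX3.1 against Vector (as deposited 9) and 2344 of the 16170 genes of that fit (without the subtraction 3056 of the same genes were called higher and 4633 lower, and as deposited 8815 of all 21566 were called); HLA-B turned to 0.0048 and HLA-E to 0.12, and the ratios came to 0.047 for PSMB8/PSMB5, -0.040 for PSMB9/PSMB6 and -0.067 for PSMB10/PSMB7. TAP1 in R52C against T164A turned to 0.26 once library medians were set equal and to 0.12 with quantile normalization (limma, adjusted p = 0.0163); the cause was not tested. The 2 scalings moved the median of all genes by 0.14 and 0.20 in R52C against Vector, -0.17 and -0.04 in T164A against Vector, -0.22 and -0.24 in NKX3.1 against R52C, and 0.31 and 0.20 in R52C against T164A. No paired analysis was possible because the labels give no replicate numbers that the groups share. With no counts, depth sets no stated limit.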

Other observations

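Class II genes encode the molecules that present peptides to CD4 T cells and their helpers. In T164A against Vector 7 of 10 class II genes were called higher and 3 lower (limma), where 40.4% of all genes were called higher and 41.7% lower; 1 of the 3, CD74, was not called lower with quantile normalization. HLA-DRB1, HLA-DPA1, HLA-DPB1 and HLA-DQA1 were under the floor in all Vector libraries and averaged 6.59 ± 0.17, 7.36 ± 0.13, 5.60 ± 0.24 and 4.06 ± 0.12 (SD, n = 4) in T164A. CIITA, the class II transactivator, was 1.75 lower in T164A (limma, adjusted p = 4.27e-06) and under the floor in 3 of its 4 libraries. In R52C against Vector 8 of the 10 were called higher and 2 lower (limma), where 42% of all genes were called higher and 41.8% lower. HLA-DPB1 and HLA-DQA1, among those called higher, were under the floor in all libraries of both groups. HLA-DQB1 averaged 6.20 ± 0.21 (n = 6) in R52C and 3.36 ± 0.52 in Vector, and HLA-DPA1 4.19 ± 0.13 in R52C. HLA-DMA (8.08 ± 0.10, n = 6) and HLA-DMB (7.25 ± 0.09), which load peptides onto class II molecules, also stood above Vector in R52C (6.16 ± 0.22 and 3.81 ± 0.85). CD74, the class II invariant chain, averaged 2.56 in R52C, 3.37 in T164A, 4.07 in Vector and 4.23 in NKX3.1.

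Of the 6 class I-like genes, 5 were called lower in R52C against Vector and none higher as deposited, where 41.8% of all genes were called lower. The direction of these 5 was that of the 9 class I genes. HFE, the smallest of these (-0.19), was not called under either other scaling. FCGRT, not called as deposited, was called 0.40 higher in R52C with quantile normalization (limma, adjusted p = 0.0344). In T164A 3 were called higher and 3 lower. MICA, a ligand of NKG2D, was lower by 0.94 in R52C and by 0.32 in T164A, and HFE, an iron regulator, by 0.48 in T164A.

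MICB, a stress ligand of the NKG2D receptor, averaged 5.95 ± 0.10 in Vector and 7.38 ± 0.07 in T164A and was under the floor in all 6 R52C libraries. CD1D, which presents lipids to natural killer T cells, averaged 5.12 ± 0.19 and 6.15 ± 0.27 and was also under the floor in all R52C libraries; its difference between T164A and Vector was not called with quantile normalization (0.97, limma, adjusted p = 0.0524). FCGRT, the neonatal Fc receptor that pairs with B2M, was 3.17 ± 0.19 (SE; limma, adjusted p = 1.22e-14) higher in T164A than in Vector, although B2M itself was lower. MR1, which presents microbial metabolites, fell in both, by 2.42 in R52C and 1.43 in T164A.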
